A study of Mus musculus with 4 samples.

Results

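Cytosolic ribosomal protein genes were taken as the genes whose whole mouse symbol is Rpl or Rps followed by a protein number. A single letter (a or l, for Rps also x or y) and further digits could follow the number, and Rplp0 to Rplp2 and Rpsa were included. Of the 20971 genes that could be named on the array, 84 met this rule, 51 for the large subunit and 33 for the small subunit, and 172 probes represented them. Another 5 symbols of this form in the RefSeq table, Rpl37, Rpl6l, Rps12l1, Rps3a2 and Rps3a3, were matched by no probe. Expression was measured in total RNA of dissected middle ears of male BALB/c mice aged 6 to 10 weeks, 9 mice in the whole study. DEP (diesel exhaust particle) inhalation lasted 1 h a day over 5 days, and the temporal bone area with the middle ear was taken on day 14. On each of 4 two-colour arrays, RNA with the source name DEP_ear was labelled with Cy5 (red) and RNA with the source name CON_ear with Cy3 (green). The labels also give an untreated state, but list both treatments under the red channel. How many mice stood behind an extract is not given, so the p-values measure the spread between these 4 arrays only.

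The ribosome translates mRNA into protein, and each of its subunits is a core of ribosomal RNA held in shape by ribosomal proteins that are mostly present in a single copy per particle. Ribosomal protein mRNAs are among the most abundant of any cell. They start with a run of pyrimidines, the 5′ terminal oligopyrimidine (TOP) tract, through which the mTOR kinase and the RNA-binding protein Larp1 control their translation together. Their abundance makes them common reference transcripts, and a few have copies that are restricted to certain tissues.

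All values below are log2 ratios, the DEP_ear channel divided by the CON_ear channel, so that 0 is no difference and 1 is a 2-fold difference. The sign follows the source names alone, since the labels list both treatments under the red channel. Under this reading Chrm1 and Epo, which the study describes as upregulated by DEPs, were lower in the DEP_ear channel, and Esr1, Sos1, Ifna1 and Foxp3, which it describes as downregulated, were higher. One probe of Cd4, also described as downregulated, was higher and its other probe was near 0. The study describes qRT-PCR in its own direction for these genes other than Foxp3, and those measurements were not analysed here. The direction here thus opposes that of the study, and with the channels exchanged each ratio below would change its sign and keep its size. Cy5 held the DEP_ear sample every time, so exposure and the dye preference of a probe cannot be told apart. In such tissue extracts, fewer cells of a type and less RNA per cell cannot be told apart either.

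Across the whole array, 59.2% to 68.9% of probes were well above background in a channel. The ratios of array 1 correlated across probes with those of arrays 2 to 4 at r = 0.61, 0.38 and -0.22, and the other pairs of arrays at 0.14 to 0.37. All 10 markers of middle ear epithelium were well above background in both channels of every array, with a median ratio of -0.13, 0.39, -0.31 and -0.69 on arrays 1 to 4. Neuron markers, 10 of 10 measured, had medians of -2.27, -1.30, -0.75 and 0.29, and skeletal muscle markers, 12 of 12 measured, had medians of -0.82, -0.46, 0.73 and 0.76. Their part in the ribosomal protein values was not tested, except where values are set beside single genes below.

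The start sites of these genes are shown because their shared control runs through the first bases of the mRNA. RefSeq start regions (assembly GRCm38.p6) were found for 63 of the 84 genes. The letters CTTTC lay within 10 bases before to 20 bases after the annotated start, on the transcript strand, in 15 of the 63 genes (23.8%), against 4.43% of 27025 genes of the table. Shown next are 4 of these windows, with CTTTC in capitals.

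Rps27, chr3:90213629-90213658, minus strand: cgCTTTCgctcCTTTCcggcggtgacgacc
Rplp2, chr7:141447641-141447670, plus strand: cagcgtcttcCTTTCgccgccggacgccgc
Rpl18, chr7:45718061-45718090, plus strand: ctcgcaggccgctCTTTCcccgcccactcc
Rpl39l, chr16:10170218-10170247, plus strand: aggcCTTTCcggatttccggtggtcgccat

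Rps27 and Rplp2 had means near 0 on these arrays, Rpl18 was among the lowest genes, and Rpl39l was a dim gene whose ratios are described with its signals below. The median log2 ratio was 0.04 in the matched genes with CTTTC and 0.04 in those without. CTTTC is only one form that a pyrimidine tract can take, and an annotated start can miss the true one by a few bases.

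Letters of known promoter motifs were counted between positions -250 and 50 relative to each start, on both strands. CCGGAAG, the core bound by ETS factors such as GABP, occurred in 25 of the 63 genes (39.7%) against 9.93% of all genes. GGGCGG, the core of the SP1 box, occurred in 38 genes (60.3%) against 38.2%, and AAGATGGC, a core of the YY1 motif, in 6 genes (9.52%) against 3.19%. TATAAA was held by 8 genes (12.7%) against 15.7%. As examples, 4 upstream stretches with the ETS core in capitals are given. They come from a gene with a low ratio (Rps21), genes with probes that disagree (Rps6, Rps18) and the dim copy Rpl39l.

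Rps21, chr2:180257279-180257378, plus strand: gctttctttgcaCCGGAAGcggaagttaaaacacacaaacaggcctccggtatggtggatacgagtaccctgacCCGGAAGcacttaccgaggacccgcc
Rps6, chr4:86857368-86857467, minus strand: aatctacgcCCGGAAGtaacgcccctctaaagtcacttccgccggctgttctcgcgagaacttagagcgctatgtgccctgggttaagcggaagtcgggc
Rps18, chr17:33955666-33955765, minus strand: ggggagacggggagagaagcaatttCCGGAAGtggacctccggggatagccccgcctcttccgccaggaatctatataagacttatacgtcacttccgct
Rpl39l, chr16:10170128-10170227, plus strand: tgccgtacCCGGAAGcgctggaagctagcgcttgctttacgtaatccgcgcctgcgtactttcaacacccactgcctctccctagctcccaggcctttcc

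The median ratio was 0.01 in the matched genes with CCGGAAG and 0.06 in those without, a difference that was not tested. These matches describe letters in a window and were not tested as binding sites.

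To find out whether DEP exposure went with a change of the ribosomal protein mRNAs, the mean ratio of each gene was compared with 0. No ribosomal protein gene passed the test. Their ratios were small, with a median of 0.06 (quartiles -0.03 and 0.19) against 0.04 (quartiles -0.18 and 0.25) over the 17962 genes tested, and they were close to each other. Of the 84 genes, 83 (98.8%) had a mean within 0.5 of 0 in either direction, against 79.5% of all genes. On every one of the 4 arrays at once, 73 genes (86.9%) stayed within 0.5 of 0, against 39.7% of all genes and 47.6% of the genes measured in both channels throughout (well above background on all 4 arrays).

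In limma, 0 of the 84 genes passed an adjusted p of 0.05, and the share over all genes was 0.0% as well. The count of ribosomal protein genes was also 0 with an intensity trend and with ordinary least squares, but 73 (86.9%, against 12.4% of all genes) with normexp and median centring. The smallest adjusted p of a ribosomal protein gene was 0.146, and that of any probe was 0.0922. At an unadjusted p under 0.05, 6 genes had a ratio above 0 (7.14%, against 9.18% of all genes), namely Rpl10, Rpl23, Rpl4, Rpl7, Rps14 and Rps20. Rpl9 was the 1 gene with a ratio below 0 at that level (1.19%, against 7.5% of all genes). These counts moved with the setting. With normexp and loess 24 lay above 0 (28.6%, against 7.81% of all genes) and 0 below (9.14% of all genes). With an intensity trend 12 lay above (14.3%, against 9.85%) and 4 below (4.76%, against 8.28%), and with ordinary least squares 16 above (19.0%, against 9.38%) and 5 below (5.95%, against 5.35%). With normexp and median centring 80 lay above (95.2%, against 32.1%) and 0 below (6.85% of all genes). When array 3 or array 4 was left out, 2 lay above 0 (2.38%, against 5.14% and 8.45%). Without array 2, 4 lay above (4.76%, against 4.62%). Without array 1, 3 lay above (3.57%, a smaller share than among all genes) and 3 below (3.57%, against 5.41%). A mean past 2-fold was seen for 1 gene, Rpl39l, against 6.21% of all genes, and its control channel was well above background on arrays 1 and 2 only. None was past 2-fold when array 3 or array 4 was left out (7.08% and 10.5% of all genes), or when both channels had to be well above background (3.55% of all genes). With normexp and median centring 24 were past 2-fold (28.6%, against 2.69%).

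Array by array, the 84 genes shifted together by small steps. Their median was 0.22 on array 1, 0.02 on array 2, 0.09 on array 3 and -0.03 on array 4, while the median of all genes was -0.03, 0.08, 0.03 and 0.06. On array 1, 74 genes lay above 0 and 10 below, against 8499 above and 9375 below among all genes. On arrays 2 to 4, 43, 56 and 35 genes lay above 0, and 41, 28 and 49 below. Among all genes, 10670, 9375 and 10053 lay above 0 on these arrays, and 7245, 8240 and 7728 below. On array 4 most of the 84 genes thus lay below 0 while most of all genes lay above. Array 1 held the highest value for 62 of the 84 genes, against 30.3% of all genes, and array 4 the lowest for 42, against 26.3%. The 51 genes of the large subunit had medians of 0.22, 0.02, 0.12 and -0.03 on arrays 1 to 4, and the 33 of the small subunit 0.21, 0.03, 0.08 and -0.06. Both subunits therefore followed the same course over the arrays.

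**Figure D1:**
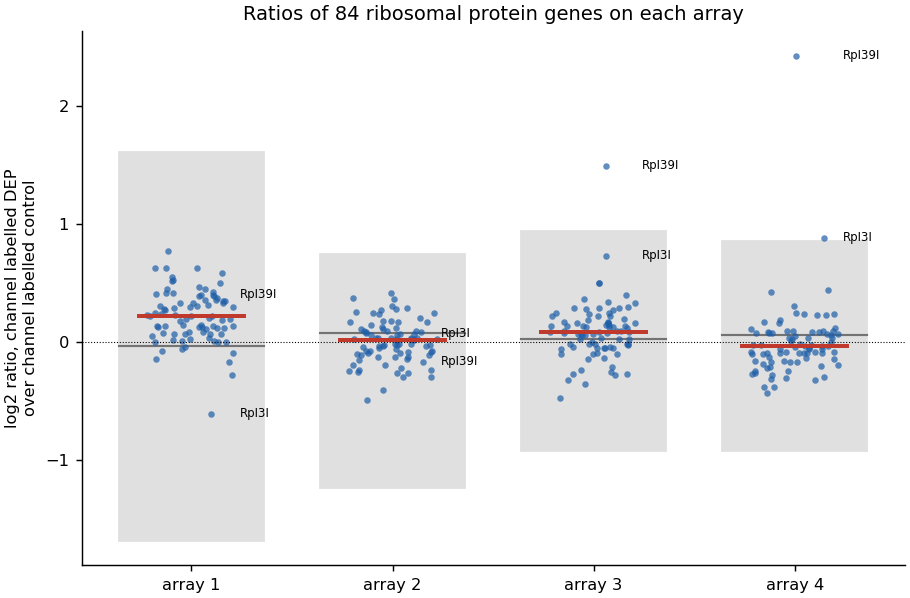
The log2 ratio of the DEP channel to the control channel (y axis) is plotted for each of the 84 ribosomal protein genes (points, spread sideways for sight only) on each of the 4 arrays (x axis). Red bars are the median of the 84 genes (0.22, 0.02, 0.09 and -0.03), grey boxes run from the 5th to the 95th percentile of all genes tested with their median as a grey line, and Rpl39l and Rpl3l are the genes that leave the group on arrays 3 and 4.

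Spread was low as well. Between the 4 arrays, the SD of a ribosomal protein gene had a median of 0.14, against 0.33 over all genes and 0.29 over the genes well above background in both channels throughout. Within an array, the SD across the 84 genes was 0.22, 0.18, 0.25 and 0.34 on arrays 1 to 4, against 1.04, 0.67, 0.62 and 0.59 across all genes. Across the genes well above background in both channels throughout it was 0.95, 0.55, 0.50 and 0.47. Of the 200 brightest probes, 38 belonged to the 84 genes, and genes of like signal were not compared. Signal was not a limit, since 82 of the 84 genes were well above background in both channels of every array, against 79.5% of all genes, and no spot of the 172 probes was saturated. The exceptions were Rpl10l and Rpl39l.

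Where the whole group stood relative to 0 rested on the dye normalisation. With the deposited ratios 65.5% of the genes had a mean above 0 (55.3% of all genes), and without array 1 the share was 52.4% (54.9%) and the median of the 84 genes 0.01. With all 4 arrays the share was, with loess on the processed signals 78.6% (51.4%), with normexp background correction and loess 82.1% (50.8%) and with normexp and centring on the array median 98.8% (67.9%). The median of the 84 genes went from 0.06 with the deposited ratios to 0.14 above the median of all genes with normexp and loess, and to 0.86, or 0.67 above it, with normexp and median centring. Under that last setting 73 of the 84 genes passed an adjusted p of 0.05, all 73 with a ratio above 0, as did 2226 of all genes. A common shift of the ribosomal protein genes in either direction was therefore not settled by these arrays. The SD across the means of the 82 genes measured throughout changed less, from 0.16 with the deposited ratios to 0.16, 0.17 and 0.25 with the other 3 normalisations in the same order.

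**Figure D2:**
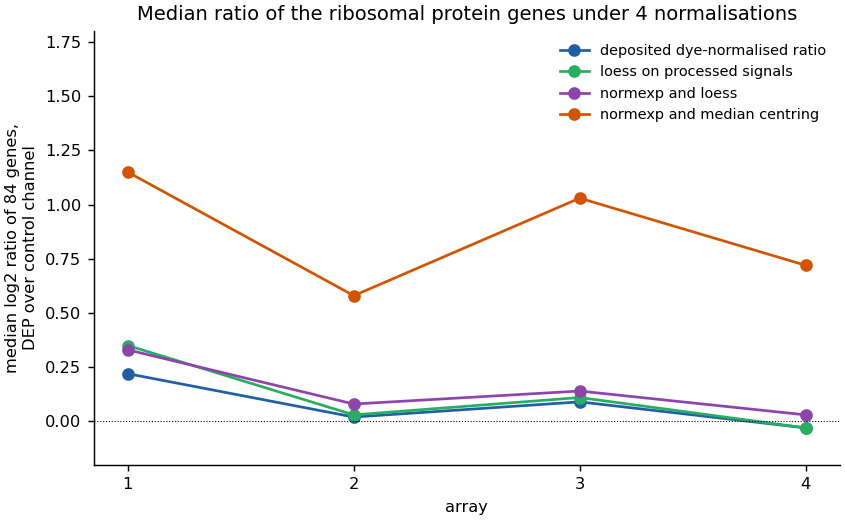
Median log2 ratio of the 84 ribosomal protein genes (y axis) on each array (x axis) under 4 normalisations of the same spots (lines). Those with an intensity-dependent or the deposited dye correction lie between -0.03 and 0.35, and median centring of each array lies between 0.58 and 1.15.

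The order of single genes within the group was kept in part. Among the 82 genes measured throughout, means ran from -0.30 for Rpl9 to 0.48 for Rpl23. On each array the median of these genes was subtracted, after which 22 genes lay above it on all 4 arrays, 19 below it on all 4, and the others kept to neither side throughout. The same count was not made for other genes, so whether it is particular to this group was not tested. Across the 82 genes the ratios of any 2 arrays correlated at r = 0.23 (arrays 1 and 4) to 0.80 (arrays 3 and 4). Without Rpl3l and Rps4l, which were left out after their values were seen, the range was 0.55 to 0.78 (80 genes), with arrays 1 and 4 again the lowest. These points share probes, dyes and arrays, so the order of the genes cannot be told apart from the order of their probes in dye preference. Against the median-centred values the order held less, with r = 0.67 and 5 of the 10 lowest and 6 of the 10 highest genes kept.

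Above 0 on all 4 arrays were 27 genes (32.1%, against 16.8% of all genes), and below 0 on all 4 were 8 genes (9.52%, against 10.6%). The 8 were Rpl19, Rpl22l1, Rpl27a, Rpl35a, Rpl9, Rplp1, Rps21 and Rps25. With normexp and median centring these counts were 80 above (95.2%, against 37.0% of all genes) and 0 below (9.48% of all genes). Without array 1, 28 lay above 0 on every array kept (33.3%, against 28.1%) and 19 below (22.6%, against 15.2%).

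The highest genes came from both subunits. Rpl23, a large subunit protein that also binds the p53 inhibitor Mdm2, had ratios of 0.55, 0.42, 0.50 and 0.44 on arrays 1 to 4. Its mean was 0.48 ± 0.06 (SD, n = 4, limma adjusted p = 0.146). The 4 values lay close together and above 0, but the other probes of Rpl23, described below, did not repeat them. Rps14, a small subunit protein whose gene lies in the interval lost in the 5q- syndrome of human bone marrow, had ratios of 0.52, 0.37, 0.34 and 0.43 (0.42 ± 0.08 SD, n = 4, limma adjusted p = 0.168). It was measured by a single probe.

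Rpl7, another large subunit protein, had ratios of 0.50, 0.24, 0.40 and 0.31 (0.36 ± 0.11 SD, n = 4, limma adjusted p = 0.202). Its other 3 probes had means of 0.20, 0.09 and 0.07, all smaller. Rpl10, a late-joining protein of the large subunit needed for subunit joining, had ratios of 0.63, 0.25, 0.28 and 0.25 (0.35 ± 0.18 SD, n = 4, limma adjusted p = 0.239). All of its 3 probes were alike, with means of 0.35, 0.36 and 0.31. Rps20, a protein of the small subunit head, had ratios of 0.63, 0.25, 0.30 and 0.24 (0.35 ± 0.18 SD, n = 4, limma adjusted p = 0.236). For Rpl10 and Rps20, array 1 stood clear of the other 3 arrays, on which the values nearly coincided. With normexp and median centring the means were 1.35 for Rpl23, 1.43 for Rps14, 1.21 for Rpl7, 1.28 for Rpl10 and 1.29 for Rps20, and limma's adjusted p of each was 0.0273 or 0.0275, so the calls of these genes rested on the normalisation.

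At the low end stood Rpl9, a large subunit protein, with ratios of -0.14, -0.29, -0.47 and -0.32. Its mean was -0.30 ± 0.14 (SD, n = 4, limma adjusted p = 0.255), below 0 on every array. A second probe of Rpl9 was weaker in the same direction, with a mean of -0.11. Rpl3, which reaches into the peptidyl transferase centre, had ratios of 0.00, -0.40, -0.27 and -0.43 (-0.27 ± 0.20 SD, n = 4, limma adjusted p = 0.312). Rps21, of the small subunit, had ratios of -0.17, -0.12, -0.32 and -0.26 (-0.22 ± 0.09 SD, n = 4, limma adjusted p = 0.326). Rpl18 had ratios of 0.01, -0.26, -0.10 and -0.38, with a mean of -0.18. None of these differences held against the spread after adjustment, and with median centring all 5 of the lowest genes, Rplp1 included, had means above 0.

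**Figure D3:**
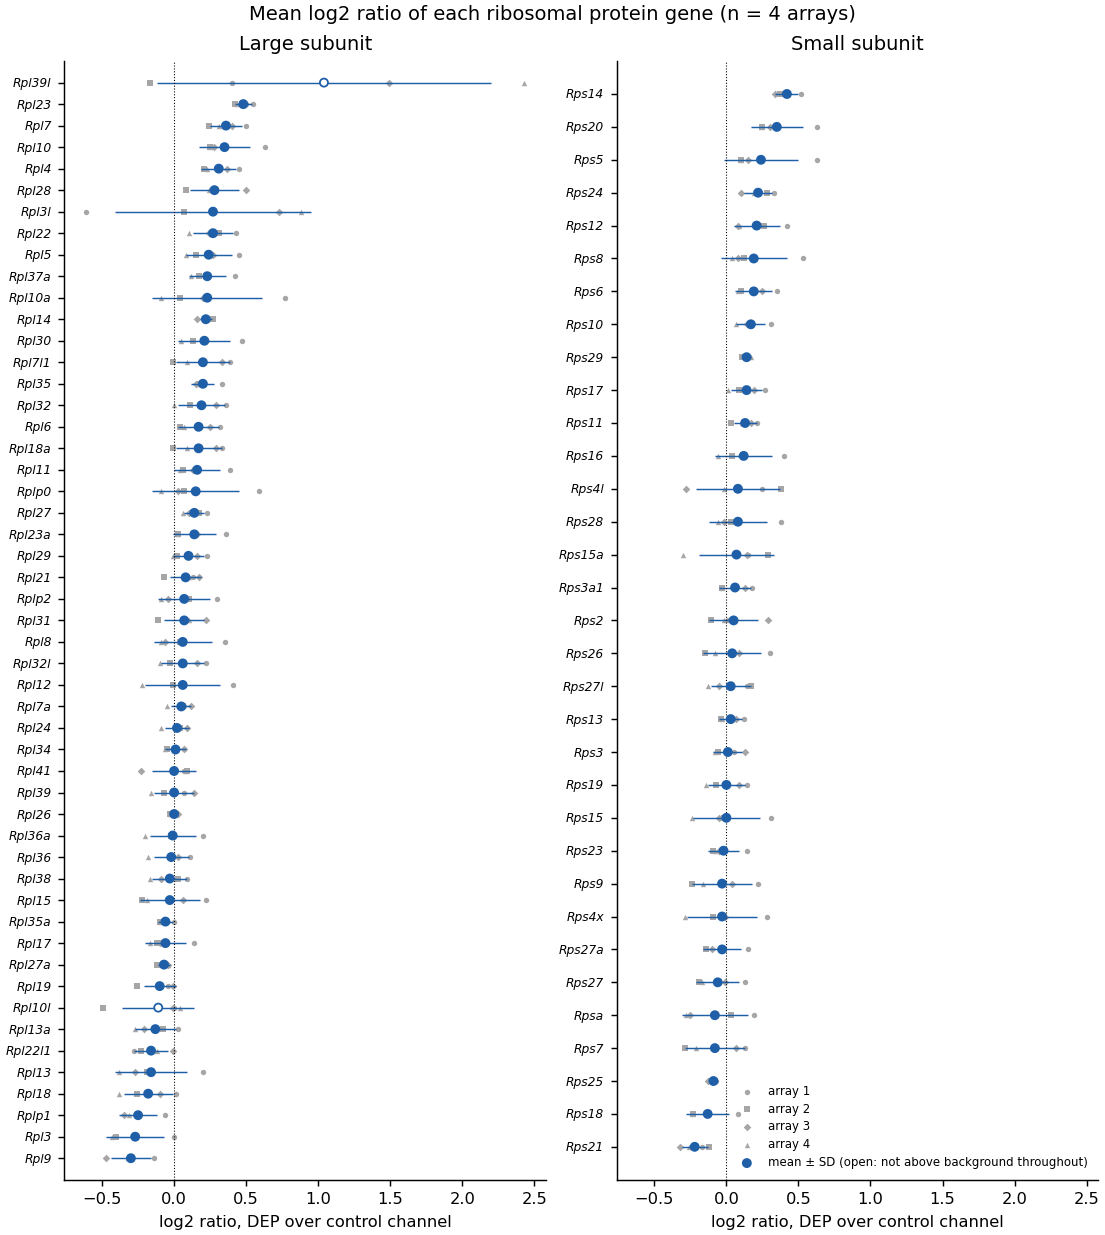
Mean log2 ratio (x axis) of each ribosomal protein gene (y axis, ordered by its mean) in the large subunit (left) and the small subunit (right), with blue points for means, blue bars for the SD over 4 arrays and grey symbols for single arrays. Most means lie within 0.5 of 0 and array 1 (grey circles) is mostly the highest, while Rpl39l and Rpl3l have the widest bars.

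The acidic stalk recruits translation factors to the large subunit and is built from Rplp0 and the paired proteins Rplp1 and Rplp2. Rplp0 had ratios of 0.59, 0.07, 0.03 and -0.09 (0.15 ± 0.30 SD, n = 4), so that its mean rested on array 1. Rplp2 had ratios of 0.30, 0.10, -0.04 and -0.09, with a mean of 0.07. Rplp1 had ratios of -0.06, -0.25, -0.35 and -0.31 (-0.25 ± 0.13 SD, n = 4, limma adjusted p = 0.307). The stalk genes were thus all highest on array 1 but did not share a level, with Rplp1 below the other two on every array.

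Rpl5 and Rpl11, which carry 5S ribosomal RNA into the large subunit and hold back Mdm2 when ribosome assembly fails, had means of 0.24 and 0.16. Their ratios ran from 0.08 to 0.45 and from 0.04 to 0.39, above 0 on all 4 arrays for both. Rps6, the protein phosphorylated by S6 kinase below mTOR, had ratios of 0.35, 0.10, 0.25 and 0.08 (0.19 ± 0.13 SD, n = 4, limma adjusted p = 0.388). Rps19, the gene most often mutated in Diamond-Blackfan anaemia, had a mean of 0.00 ± 0.13 (SD, n = 4), and Rps3, at the mRNA entry of the small subunit, 0.01 ± 0.10. Rpsa, which also serves as a laminin receptor, had ratios of 0.19, 0.03, -0.25 and -0.28, with a mean of -0.08. These genes with roles outside translation or in disease therefore lay inside the range of the other ribosomal protein genes.

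Some of the genes are copies that share the number of a canonical partner, and only part of these copies are restricted to particular tissues. Of the copies, 6 were set against their canonical partners, each represented by its brightest probe. Over 4 arrays an exact sign-flip test cannot give a p below 0.125, so no pair could pass a threshold of 0.05. Rpl22l1, which replaces Rpl22 in part of the ribosomes and whose mRNA is held down by the Rpl22 protein, had ratios of -0.28, -0.23, -0.01 and -0.12 (-0.16 ± 0.12 SD, n = 4). Rpl22 had ratios of 0.43, 0.31, 0.24 and 0.10 (0.27 ± 0.14 SD, n = 4). On these probes Rpl22l1 lay below Rpl22 on all 4 arrays, by -0.71, -0.54, -0.25 and -0.22 (mean -0.43 ± 0.24 SD, two-sided exact sign-flip p = 0.125, adjusted over the 6 pairs 0.375). A second probe of Rpl22, also well above background throughout, had ratios of 0.68, 0.01, 0.02 and -0.12, which overlapped those of Rpl22l1 and equalled them on array 4. With median centring the mean of Rpl22l1 was 0.44, so the sign of its own ratio was not settled.

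Rpl7l1, a relative of Rpl7 with a role in ribosome assembly, lay below the brightest probe of Rpl7 by a mean of -0.16 ± 0.09 (SD, n = 4, exact sign-flip p = 0.125, adjusted 0.375). It lay above 2 of the other probes of Rpl7 on all 4 arrays, so no direction held for this pair. Rps27l, a p53 target, and Rps27 had means of 0.03 and -0.06, a difference of 0.09 ± 0.18 (SD, n = 4). Rps4l, which RefSeq classes as a transcribed pseudogene, and Rps4x had means of 0.08 and -0.03, and the copy was higher on 2 arrays and lower on 2. Neither of these pairs differed beyond the spread between arrays. Rpl10l, a copy known from the male germ line, was on no array well above background in either of the channels, and was not among the pairs.

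Rpl3l, which takes the place of Rpl3 in skeletal and heart muscle, varied more between arrays than any other of the 82 genes measured throughout. Its ratios were -0.61, 0.07, 0.73 and 0.88 (0.27 ± 0.68 SD, n = 4, limma adjusted p = 0.626). Processed signals were 4190, 2860, 3730 and 3270 in the DEP channel and 6390, 2720, 2250 and 1780 in the control channel of arrays 1 to 4, so the control channel covered the wider range. The 12 skeletal muscle markers had medians of -0.82, -0.46, 0.73 and 0.76 on the same arrays, and each of the 12 was well above background in both channels throughout. Their summed signal ran from 381000 to 652000 in the DEP channel and from 320000 to 1050000 in the control channel. Rpl3l was thus lowest on array 1 and high on arrays 3 and 4, as the median of the muscle genes was, whereas Rpl3 was highest on array 1. Other marker lists were also lowest on array 1 and above 0 on arrays 3 and 4, with medians of -0.55, 0.06, 0.52 and 0.39 for B cells, -1.13, -0.03, 0.51 and 0.17 for neutrophils and precursors, and -0.48, 0.30, 0.62 and 0.17 for cycling cells. The difference between copy and partner was -0.61, 0.47, 1.00 and 1.31 (exact sign-flip p = 0.375). The part of any of these cell types in the Rpl3l values was not tested.

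Rpl39l, a copy of Rpl39 best known from the testis, had the highest mean of the group and the widest spread. Its ratios were 0.40, -0.17, 1.49 and 2.43 (1.04 ± 1.16 SD, n = 4, standard error 0.46, limma adjusted p = 0.306). The processed signals were low, at 172, 61.0, 85.2 and 103 in the DEP channel and 130, 68.9, 30.4 and 19.0 in the control channel. The DEP channel was well above background on 4 arrays, the control channel only on arrays 1 and 2, so both high ratios came from arrays whose control signal was not. With normexp background correction and loess the mean was 0.35, and leaving out array 4 gave 0.57. Rpl39 itself had ratios of 0.07, -0.07, 0.14 and -0.16. Of the 4 male germ cell markers tested, Prm1 and Prm2 were well above background in both channels throughout, Tnp1 in both on 2 arrays, and Ddx4 in neither channel of any array. The median of the 4 was 0.11, 0.32, 0.09 and -0.05 on arrays 1 to 4, and the part of such cells in the Rpl39l values was not tested.

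**Figure D4:**
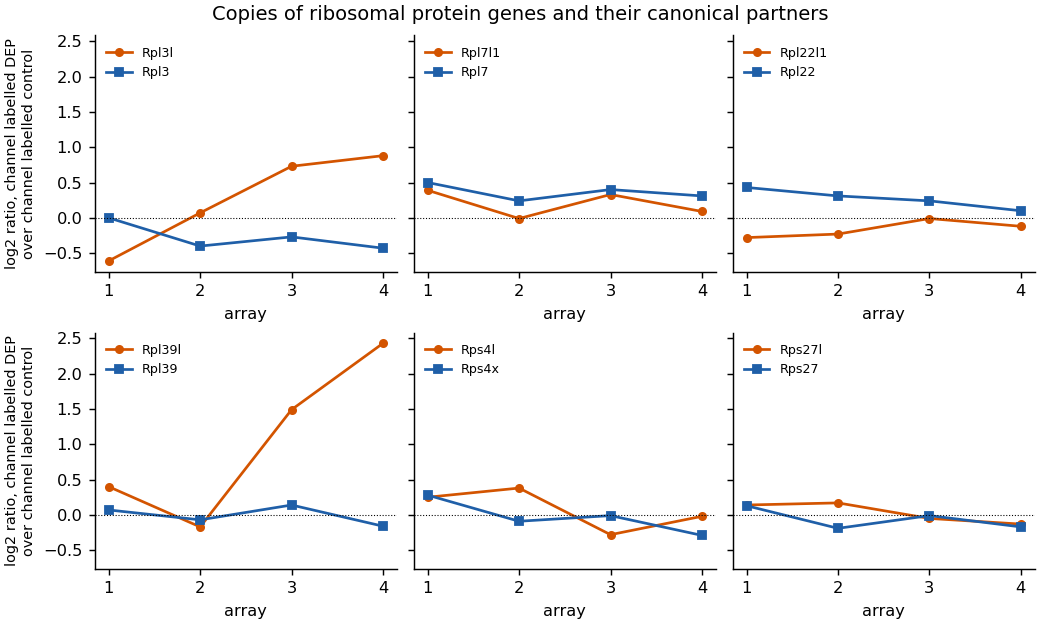
Log2 ratios (y axis) on each array (x axis) of 6 copies of ribosomal protein genes (orange circles) and their canonical partners (blue squares). Each gene is shown by its brightest probe, and other probes of Rpl22 and Rpl7 lie closer to or below their copies. Rpl3l lies below Rpl3 on array 1 and above it on arrays 2 to 4, and Rpl39l leaves Rpl39 on arrays 3 and 4, where the control signal of Rpl39l was not well above background.

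Ribosomal protein mRNAs have many processed pseudogenes and near-identical copies, so a probe can collect signal from more than its gene, and different probes of a gene were compared for that reason. In the 51 genes with 2 or more probes well above background throughout, the lowest and highest probe mean differed by a median of 0.15. In 33 genes the gap was under 0.2, and in 25 genes the probes lay on both sides of 0. Rpl17, with 7 probes the most of any gene, had means between -0.17 and 0.08. A gap of this size is as large as most of the ratios themselves, which limits what any single ratio says about its gene.

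The widest gaps belonged to Rpl39 (0.63), Rps24 (0.50), Rps18 (0.43), Rps6 (0.36) and Rpl23 (0.34). Rpl39 had means of 0.00 and -0.08 on its probes A_55_P1957291 and A_55_P2182106 and of 0.56 on A_66_P126080. The last had signals of 132 to 293 in the DEP channel, against 19800 to 46000 for the other probes, so its deviation came with a weak spot. Rps18 had means of -0.13 and 0.30, and Rps6 of 0.19, 0.17 and 0.52. Of the 3 probes of Rpl23, A_55_P1961235 gave 0.14 and A_51_P108190 gave 0.20, so the 0.48 of the highest ranked gene came from 1 of its 3 probes.

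Rps24 differs in kind, because its pre-mRNA is spliced into transcripts that differ in short exons near the 3′ end between tissues, and its 3 probes are assigned to 3 different RefSeq transcripts. Probe A_55_P2032600 had ratios of 0.33, 0.28, 0.10 and 0.19 (0.22 ± 0.10 SD, n = 4, limma adjusted p = 0.325). Probe A_55_P1993880 had ratios of -0.04, -0.23, -0.35 and -0.40 (mean -0.26). Probe A_55_P1955243 had ratios of -0.78, -0.19, -0.49 and 0.34 (mean -0.28). The first and the second did not overlap on any pair of arrays, and the third crossed both, reaching from the lowest value of the gene on array 1 to the highest on array 4. All 3 were well above background throughout. The mean over the 3 probes was -0.10, so the sign for Rps24 depended on the probe. Whether the transcripts or their probes differ was not tested.

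Dim probes gave the most extreme values of the group. Of the 170 probes tested, A_52_P491433 of Rps15a had ratios of -3.13, -2.11, 0.02 and 1.35. Its DEP channel was well above background only on array 3 and its control channel on arrays 1 to 3, with signals of 6.38 to 69.9 and 6.24 to 69.1. The brighter probes of Rps15a had means of 0.07 and -0.08, with signals of 19500 or more in both channels. Neuron markers had medians of -2.27, -1.30, -0.75 and 0.29 on these arrays, with a summed signal of 23000 to 35900 in the DEP channel and 26900 to 94400 in the control channel. The 7 cerebellum markers tested, 4 of them measured in both channels throughout, had medians of -3.07, -3.55, -0.13 and 0.25. Since at least 1 channel of this probe was not above background on arrays 1, 2 and 4, its values there have no reliable order, and the part of neural tissue in them was not tested. Probe A_52_P653937 of Rpl21 had ratios of 0.79, 0.20, 2.19 and 0.96, with the control channel above background on 2 arrays, against a mean of 0.08 for the brightest probe of Rpl21. Values like these would stand out in a list of probes by ratio, yet belong to genes whose bright probes lay near 0.

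**Figure D5:**
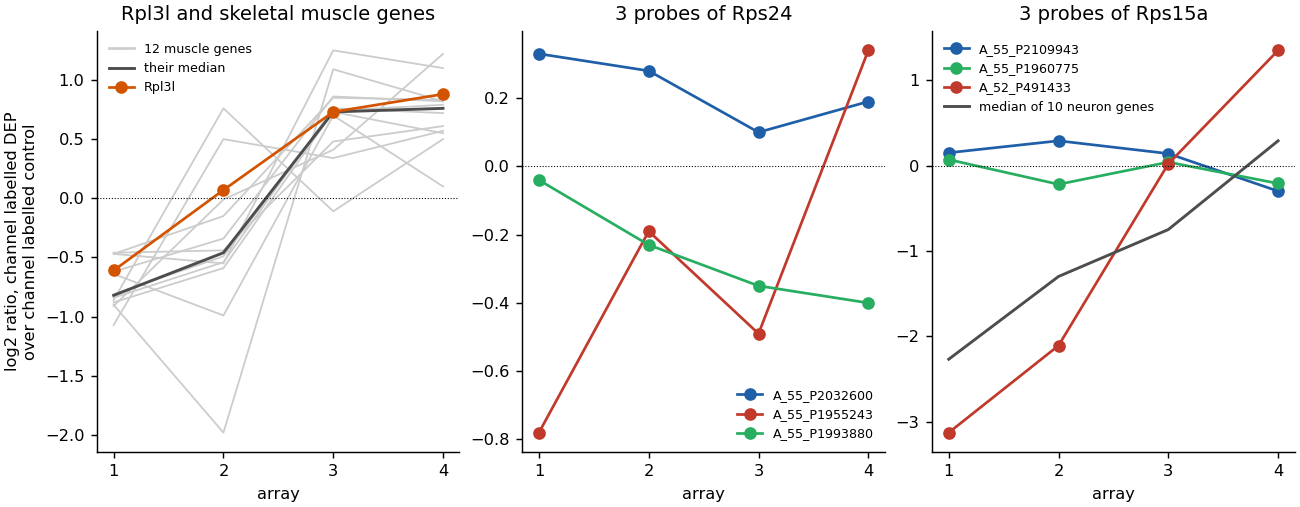
Log2 ratios (y axis) on each array (x axis) of Rpl3l with 12 skeletal muscle genes (left), of the 3 Rps24 probes (middle) and of the 3 Rps15a probes with the median of 10 neuron genes (right). Rpl3l runs with the muscle genes from -0.61 to 0.88, the Rps24 probes lie on both sides of 0, and the dim Rps15a probe runs from -3.13 to 1.35 while the bright ones stay within 0.30 of 0.

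Genes that work with the ribosomal proteins were counted next. These counts use the deposited ratios, with which 55.3% of all genes had a mean above 0, against 67.9% with normexp and median centring. Of the ribosomal proteins that other symbols name, Fau, Rack1 and Rpl36al had means of 0.19, 0.22 and -0.03 and were, like the group itself, highest on array 1. The 19 translation factors and other TOP mRNAs had a median of 0.12, with 14 above 0 and 5 below (55.3% of all genes lay above). Of the 19, 0 had an unadjusted p under 0.05 (9.18% of all genes did above 0 and 7.5% below). They ran from -0.16 for Pabpc1, the poly(A)-binding protein, to 0.31 for Eef1g, a subunit of elongation factor 1. Their medians on arrays 1 to 4 were 0.13, -0.03, 0.09 and 0.05, highest on array 1 like those of the ribosomal protein genes but lowest on array 2.

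The 30 ribosome assembly factors, which transcribe or process ribosomal RNA or help to build the subunits, had a median of 0.20. Of these, 25 lay above 0 and 5 below (55.3% of all genes lay above). Of the 30, 6 had an unadjusted p under 0.05, all above 0 (9.18% of all genes did), and none passed after adjustment in limma. They were Rrs1 (0.50 ± 0.29 SD), Pes1 (0.39 ± 0.08 SD), Nop58 (0.33 ± 0.17 SD), Ubtf (0.32 ± 0.16 SD), Ltv1 (0.31 ± 0.06 SD) and Gnl3 (0.31 ± 0.13 SD), each with n = 4. Rrs1 and Pes1 act in large subunit maturation and Ubtf is a factor of RNA polymerase I. At the low end were Ncl, nucleolin, at -0.20 and Rrn3, an initiation factor of RNA polymerase I, also at -0.20.

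Among 12 regulators of ribosome production the median was 0.18, with 10 above 0 and 2 below (55.3% of all genes lay above). Myc, which drives transcription of ribosomal components, had ratios of 1.49, 0.41, 0.37 and -0.17 (0.53 ± 0.70 SD, n = 4, limma adjusted p = 0.377), so its mean rested on array 1. Cdkn1a, named after its values were seen, had the higher value there, with 1.85, 0.22, 0.16 and -0.68. Mdm2 was the 1 gene of the list with an unadjusted p under 0.05 (8.33%, against 9.18% of all genes above 0), with 0.37 ± 0.19 (SD, n = 4, limma adjusted p = 0.232). The 78 mitochondrial ribosomal proteins, which build a separate ribosome, had a median of -0.03, with 34 above 0 and 44 below (55.3% of all genes lay above). Of these 5 had an unadjusted p under 0.05 above 0 (6.41%, against 9.18% of all genes) and 3 below (3.85%, against 7.5%), and among the 77 measured throughout the highest was Mrps22 at 0.35. Mrpl21 was the lowest at -1.02 but was on no array well above background.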

How the data were processed

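The authors hybridised Cy5- and Cy3-labelled cRNA to 4 mouse arrays and quantified the spots with Agilent Feature Extraction 10.10.1.1. The deposited files hold signal intensities per spot; the processed intensity is background-subtracted and dye-normalised by the authors' software. The deposited log10 ratio sets Cy5 against Cy3. A table of the authors' log10 ratios holds the same values rounded. No column of values lacked a sample.

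Control spots, outlier spots and those lacking a ratio were dropped, and the deposited log10 ratios were put on the log2 scale. Spots of a probe were averaged. Probes were named through their accessions with a RefSeq table of GRCm38.p6, which gave 27655 of 39429 probes a symbol. The brightest tested probe stood for a gene. The ratios of the 31577 probes with at least 3 arrays were fitted with an intercept in limma 3.58.1 under R 4.3.3 (lmFit, eBayes, prior degrees of freedom 1.98), and p-values were adjusted by Benjamini-Hochberg over these probes. The script was tested on simulated data. Tables and figures were made in Python 3.11.15 with pandas 2.3.3, numpy 2.4.6 and matplotlib 3.10.9.

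Alternatives were normexp correction (offset 50) with loess or median centring, loess on the processed intensities, the deposited table, only probes above background in both channels, outlier spots kept, an intensity trend, ordinary least squares, the mean of a gene's probes and leaving out each array. Genes named are the copies and their partners, the stalk proteins, 6 genes with other known roles, the 5 highest and 5 lowest genes measured throughout, and the 5 with the widest gap between probes. The members, lists and tests were chosen with earlier results of these data known. The number of arrays limits the precision.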

Additional observations from a re-analysis of the deposited data

Results flagged for a closer look

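Among 31 named genes tested for a single array far from the other 3, 3 had one, and chance alone gives about 1 in 20. Rpl10 had 0.63 on array 1 against 0.25 to 0.28 on the others. Rps20 had 0.63 on array 1 against 0.24 to 0.30. Rpl10l had -0.49 on array 2 against -0.01 to 0.04, in a gene that was on no array well above background.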

How the results depend on the processing

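With the deposited table and with outlier spots kept, each value stayed on its side. The counts of an unadjusted p under 0.05 (1 below 0 and 6 above) became 0 and 24 with normexp and loess (all genes 9.14% and 7.81%), 4 and 12 with an intensity trend (8.28% and 9.85%), and 5 and 16 with ordinary least squares (5.35% and 9.38%). With normexp and median centring they became 0 and 80 (6.85% and 32.1%), with 73 past an adjusted p of 0.05 (12.4%), 80 above and 0 below 0 on all 4 arrays (37.0% and 9.48%), 24 past 2-fold (2.69%) and a median of 0.86 (all genes 0.19). With loess on processed signals, 0 lay below 0 at an unadjusted p under 0.05 (8.53% of all genes) and 8 above (9.52%, against 7.17%). Below 0 on all 4 arrays were 2 genes with either loess, against 8 (2.38%, against 12.6% of all genes with normexp and 12.5% on processed signals). Past 2-fold were 0 with normexp and loess (2.17% of all genes), with loess on processed signals (6.29%) or when both channels had to be above background (3.55%). Leaving out an array, the counts at an unadjusted p under 0.05 ran from 0 to 3 below and 2 to 4 above 0. From 8 to 19 genes lay below 0 on every array kept, and 0 to 1 were past 2-fold. The 19 came without array 1 (22.6%, against 15.2% of all genes). Leaving out array 2, 3 or 4 gave 9.52% to 10.7% (13.2% to 20.8% of all genes). Signs turned with median centring for Rpl3 (0.46), Rpl22l1 (0.44), Rpl39 (0.74), Rps4x (0.59), Rps27 (0.97), Rplp1 (0.69), Rpsa (0.85), Rpl9 (0.78), Rps21 (0.43), Rpl18 (0.59) and Rps18 (0.53). They turned with normexp and loess for Rpl10l (0.03), Rpl39 (0.08), Rps27 (0.17), Rps19 (-0.02) and Rpsa (0.05), and with loess on processed signals for Rpl39 (0.04) and Rps4x (0.01). The mean of the probes turned Rpl39 (0.16), Rps24 (-0.10) and Rps18 (0.08). Leaving out an array gave Rpl10l -0.17 to 0.01, Rpl39 -0.05 to 0.05, Rps4l -0.02 to 0.20, Rps4x -0.13 to 0.06, Rps27l -0.01 to 0.09, Rplp2 -0.01 to 0.12, Rps3 -0.03 to 0.04 and Rps19 -0.04 to 0.05. No spot was saturated, so the planned settings on saturation changed nothing and are not listed. The cause of these changes was not tested. The mean of the probes gives no p, and signal over background limits Rpl10l and Rpl39l. Each ratio pairs the extracts of 1 array, so no unpaired values were compared.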
